A study of Mus musculus with 2 samples.

Results

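The genes described are Ccl2, Ccl7, Ccl8 and Ccl12, 4 of the 32285 genes listed in the deposited count matrices, found by their symbols. They were followed in the mononuclear cells of injured mouse quadriceps, in 1 single-cell RNA library from day 1 and 1 from day 3 after injection of BaCl2, a salt that kills muscle fibres while leaving the muscle able to rebuild. Both libraries came from male wild-type (WT) mice of 14 weeks, each pooled from 5 animals, and the injury was made with 1.2% BaCl2. The suspensions hold no muscle fibres. The cells were frozen and thawed before the library was made, and no uninjured muscle is analysed here.

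These genes encode small secreted chemokines of the CC class, named for a pair of adjacent cysteines near the start of the mature protein. They are grouped as monocyte chemoattractants, though they differ in receptor. CCL2 (also called MCP-1) and CCL7 (MCP-3) are the classical ligands of CCR2, and both are made by macrophages, fibroblasts and endothelial cells under NF-kB signalling. CCL8 (MCP-2) in mice acts mainly through CCR8, and it is often made by tissue-resident macrophages. CCL12 (MCP-5) is a rodent ligand of CCR2. In injured muscle, monocytes enter through CCR2 in the first days, turn into macrophages that clear the dead fibres, and support the satellite cells and fibro-adipogenic progenitors (FAPs) that rebuild the tissue.

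The 4 genes form one cluster on chromosome 11 (mm10), all on the plus strand and within 81.2 kb. Ccl2 (ENSMUSG00000035385) lies at chr11:82035571-82037453, Ccl7 (ENSMUSG00000035373) at chr11:82045712-82047525, Ccl12 (ENSMUSG00000035352) at chr11:82101845-82103400 and Ccl8 (ENSMUSG00000009185) at chr11:82115185-82116799. Each has 3 exons in its protein-coding transcript. Ccl11, an eosinophil attractant, lies between Ccl7 and Ccl12. The coding stretch around the cysteine pair is shown for all 4 because it is what makes them CC chemokines. It lies toward the 5′ end of the coding sequence and is not where most reads of a 3′ library fall. The capitals mark the adjacent cysteine codons, which lie in exon 2 of each gene, and the stretches are 60 bases of GENCODE transcripts, 5′ to 3′ on the plus strand.
Ccl2: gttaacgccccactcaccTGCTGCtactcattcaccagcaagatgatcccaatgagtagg
Ccl7: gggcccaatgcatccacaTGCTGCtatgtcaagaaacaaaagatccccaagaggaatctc
Ccl12: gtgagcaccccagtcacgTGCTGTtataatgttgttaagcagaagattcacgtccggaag
Ccl8: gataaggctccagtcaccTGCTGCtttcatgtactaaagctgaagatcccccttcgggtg

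Coding sequences of the 6 pairs were 63.6% to 68.4% identical, with Ccl12 and Ccl8 the closest pair. The longest run of bases shared exactly by any pair of the transcripts was 23 bases, between Ccl2 and Ccl7.

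Levels are UMIs (unique molecular identifiers, each standing for 1 captured RNA molecule) per 1000000 UMIs of the same cells (CPM). Because each molecule is counted once at its 3′ end, levels of different genes are compared without dividing by length. Levels are given with 95% Poisson intervals and shares with 95% Clopper-Pearson intervals, both covering counting error only. With 1 library per day no test between days was possible, and nothing shows how far 2 pools of mice at the same day would differ. After filtering, 6735 cells of day 1 and 4627 of day 3 remained, with medians of 9389 and 14548 UMIs per cell, and no cell barcode was shared. The 2 matrices list 737280 and 6794880 possible barcodes, so the library chemistry may have differed, and day and chemistry cannot be told apart. Barcodes with more than 7.5% mitochondrial UMIs were 3.76% of those taken on day 1 and 27.2% on day 3, and were left out.

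The cells fell into 14 clusters, of which 13 were named from markers of a cell type, with the ending -like. On days 1 and 3, monocyte/macrophage-like cells numbered 3658 and 2744, neutrophil-like cells 2078 and 255, and fibroblast/FAP-like cells 652 and 848. Dendritic cell-like cells numbered 124 and 274, endothelial-like cells 82 and 24, and satellite cell/myoblast-like cells 6 and 205. A cluster of 135 and 277 cells stayed unnamed, because its markers were mixed. Against all other cells it was led by Plac8 and Ly6c2, genes of classical monocytes, while against other cell types it was led by S100a9 and S100a8, and 7 neutrophil markers (S100a8, S100a9, Csf3r, Cxcr2, Mmp9, G0s2 and Hdc) were raised. It is called the Plac8-led cluster, and its levels are not those of a known type. No marker of the monocyte/macrophage or fibroblast/FAP list was at 0 in the cells of that name on either day. Types with fewer than 50 cells in a library were not described.

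Across all cells, Ccl2 and Ccl7 were abundant on both days, and Ccl8 and Ccl12 were far scarcer. Ccl2 stood at 3587 CPM on day 1 (3574 to 3601) and at 813 CPM on day 3 (807 to 819). Ccl7 stood at 2183 CPM (2172 to 2194) and 817 CPM (811 to 823). On day 1 Ccl2 exceeded Ccl7, whereas on day 3 the levels of this pair differed by less than their counting error. Ccl12 was at 195 CPM (192 to 199) on day 1 and 89.6 CPM (87.6 to 91.7) on day 3. Ccl8 went the other way, with 62.3 CPM (60.5 to 64.2) on day 1 and 96.2 CPM (94.1 to 98.3) on day 3. The order of the scarce pair thus turned over between the libraries. Over all cells 3 of the 4 members were at least 2-fold lower on day 3, which 4.7% of 10388 genes were, and none was at least 2-fold higher, as 20.9% were.

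**Figure D1:**
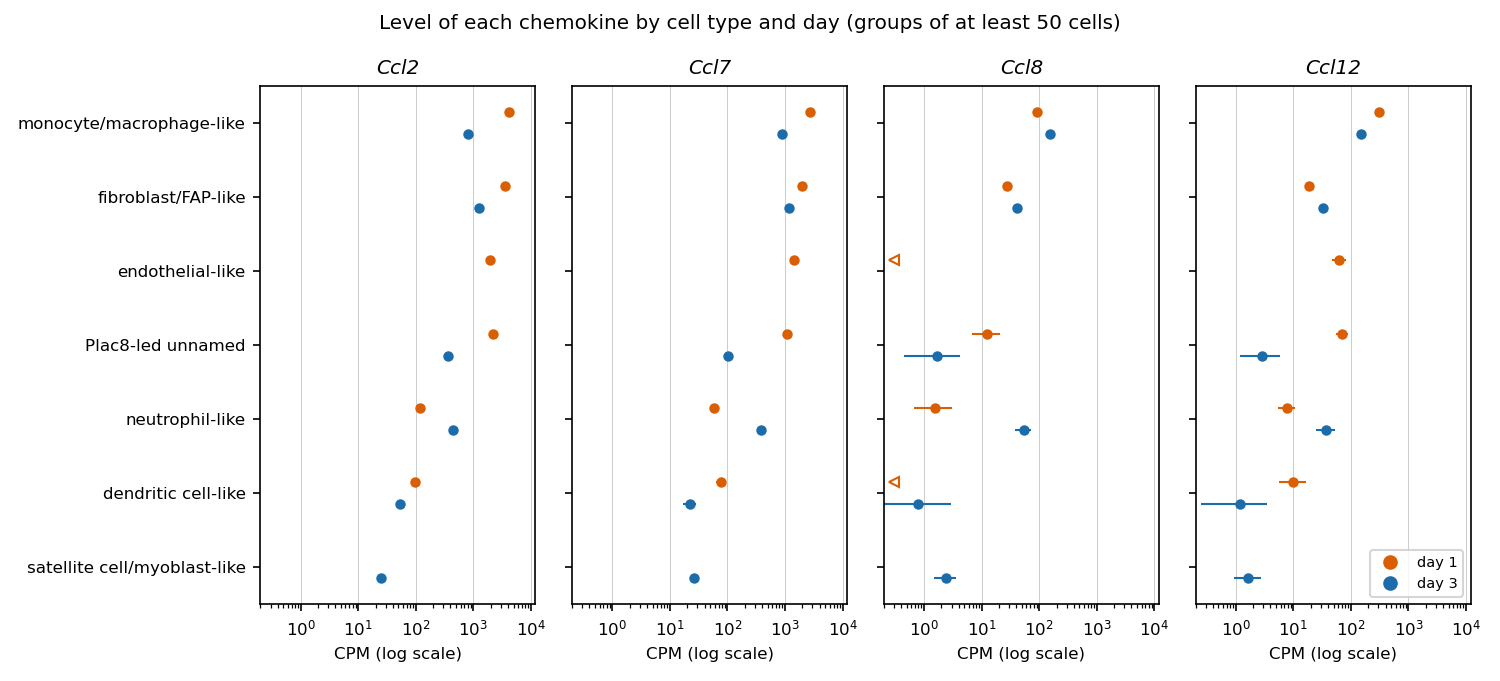
Level of each chemokine in CPM (log axis) by cell type, for day 1 (orange) and day 3 (blue), in groups of at least 50 cells; lines are 95% Poisson intervals and open triangles at the left edge mark groups with no UMI. For Ccl2 and Ccl7 the monocyte/macrophage-like and fibroblast/FAP-like points lie together at the top of the range, at 4207 and 3592 CPM for Ccl2 on day 1, whereas for Ccl12 they are apart, at 308 and 18.7 CPM.

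Monocyte/macrophage-like cells held the larger part of the UMIs of every member. On day 1 they held 71.5% of the UMIs of Ccl2, 74.4% of Ccl7, 87.9% of Ccl8 and 96.1% of Ccl12. They were then 54.3% of the cells and held 61.0% of all UMIs. On day 3 the parts were 53.6%, 56.5%, 86.7% and 88.5% in the same order, at 59.3% of the cells and 53.2% of all UMIs. On day 3 their part of Ccl2 was thus about their part of all RNA counted, and that of Ccl7 little above it. Nearly all of the other UMIs of the members lay in fibroblast/FAP-like cells. Their part of the Ccl2 UMIs was 26.5% on day 1 and 44.1% on day 3, and their part of the Ccl7 UMIs 23.7% and 42.2%, while they were 9.68% and 18.3% of the cells and held 26.5% and 29.0% of all UMIs. On day 1 their part of Ccl2 was thus no larger than their part of all RNA counted and that of Ccl7 was smaller, while on day 3 both were larger. For Ccl8 it was 11.6% and 12.5%, and for Ccl12 2.54% and 10.8%. The Ccl2 and Ccl7 transcripts therefore came from both cell types, with the fibroblast/FAP-like part larger on day 3, and those of Ccl8 and Ccl12 mostly from monocyte/macrophage-like cells. When each cell instead took the name of its highest marker score, which put 2151 cells of day 1 and 2461 of day 3 in the class, the monocyte/macrophage-like part of the Ccl2 UMIs was 44.9% on day 1 and 48.8% on day 3.

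**Figure D2:**
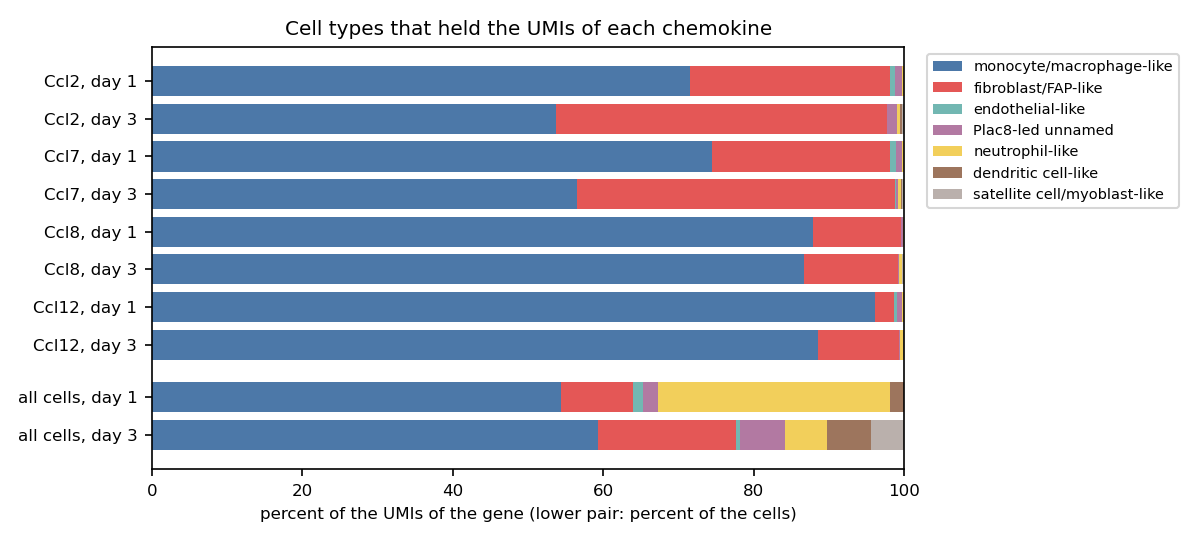
Percent of the UMIs of each chemokine that lay in cells of each type on day 1 and day 3, with the percent of all cells in each type in the lower pair of bars. Monocyte/macrophage-like cells (dark blue) held 96.1% of the Ccl12 UMIs on day 1, and fibroblast/FAP-like cells (red) held 44.1% of the Ccl2 UMIs on day 3.

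Within monocyte/macrophage-like cells, 3 of the 4 members were at least 2-fold lower on day 3, which 5.31% of the 8147 genes with at least 500 UMIs were, and none was at least 2-fold higher, as 20.4% of those genes were. Ccl2 stood at 4207 CPM on day 1 and 820.1 CPM on day 3, a log2 ratio of day 3 over day 1 of -2.36 (-2.38 to -2.34), or 5.13-fold lower. Ccl7 stood at 2665 and 869 CPM, a log2 ratio of -1.62 (-1.63 to -1.60), or 3.07-fold lower. Ccl12 stood at 308 and 149 CPM, a log2 ratio of -1.04 (-1.09 to -1.0). That of Ccl12 sat at the 2-fold line, and 5 of 18 other ways of processing put it inside, between -1.0 and -0.71. Ccl8 stood at 89.8 and 157 CPM, a log2 ratio of 0.81 (0.75 to 0.86). It was lower on day 3 within the only cluster of the class that had 50 cells or more on both days. A cluster with 705 cells on day 1 and 49 on day 3 had a higher Ccl8 level on day 3. The median log2 ratio of all these genes was 0.35, so relative to it the ratios were -2.71 for Ccl2, -1.97 for Ccl7, -1.40 for Ccl12 and 0.45 for Ccl8. Markers of neutrophils summed to 1261 CPM in these cells on day 1 and 252 CPM on day 3, and their part in the differences was not tested. Fibroblast/FAP markers summed to 23.4 and 84.3 CPM. In cells with no UMI of the 8 fibroblast/FAP markers the log2 ratios were -2.28, -1.53, -1.0 and 1.05 for Ccl2, Ccl7, Ccl12 and Ccl8.

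The share of monocyte/macrophage-like cells with a UMI followed the levels for 3 members and parted from them for Ccl12. A Ccl2 UMI was found in 93.4% of the cells on day 1 (92.5% to 94.1%) and 82.8% on day 3 (81.4% to 84.2%), and a Ccl7 UMI in 78.2% and 67.1%. A Ccl8 UMI was found in 4.46% (3.81% to 5.18%) and 18.2% (16.8% to 19.7%), and a Ccl12 UMI in 38.9% and 37.0%. The day 3 cells were deeper, at a median of 14454 UMIs against 11192, so each cell was thinned to 3000 UMIs, which left out 104 cells of day 1 and 45 of day 3. The thinned shares were 85.6% and 62.4% for Ccl2, 68.5% and 49.1% for Ccl7, 2.98% and 10.2% for Ccl8, and 24.4% and 18.1% for Ccl12. At equal depth Ccl12 too was found in a smaller share of the day 3 cells. Dendritic cell-like cells served as a comparison. They are not a floor for Ccl2, since RNA outside cells would give 16.7% of their level on day 1 and 12.4% on day 3. Their thinned shares on days 1 and 3 were 13.3% and 9.80% for Ccl2, 6.67% and 3.53% for Ccl7, 0% and 0.39% for Ccl8, and 1.67% and 0% for Ccl12, at medians of 12284 and 8447 UMIs. All 8 shares of the monocyte/macrophage-like cells were above these.

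The 2 less abundant genes also differed in how they were spread over the cells. On day 1, 13 of the 3658 monocyte/macrophage-like cells held 50% of the Ccl8 UMIs and the single highest cell, with 330 UMIs, held 8.47%. On day 3, 38 of 2744 cells held 50%. The cells needed for 50% of the UMIs were 134 and 96 for Ccl12, 388 and 228 for Ccl7, and 494 and 324 for Ccl2. Cells with a Ccl8 UMI held 23.9 of them on average on day 1 and 14.0 on day 3, whereas cells with a Ccl12 UMI held 9.38 and 6.58. Ccl8 was thus carried by few cells at a high level and Ccl12 by many cells at a low level. Since so few cells decide the Ccl8 value, its counting interval understates the error. Without the 10 cells richest in Ccl8 in each library its log2 ratio was 1.26, past the 2-fold line.

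The 6 monocyte/macrophage-like clusters, made without using the members, separated the 4 genes further. Day 1 was made up of clusters led by Serpinb2 (1410 cells), Ppbp (767), Cd163 (705) and Ifitm6 (702), and day 3 of clusters led by Gpnmb (1347) and Ifi213 (1294). The Serpinb2-led and Ppbp-led clusters fitted best the markers of pro-inflammatory macrophages, the Cd163-led cluster those of TLF+ resident-like macrophages, the Ifitm6-led cluster those of classical monocytes, the Gpnmb-led cluster those of Gpnmb+Spp1+ macrophages and the Ifi213-led cluster those of interferon-responsive macrophages. The Ifi213-led cluster was also led by Ly6c2 and Ms4a4c, which are on the classical monocyte list. Its levels are therefore not those of interferon-responsive macrophages alone, which the study counted as a minor part of its day 3 cells. The Cd163-led cluster was also led by Ppbp and by Arg1, a pro-inflammatory gene. On day 1 its Ccr2 level was 332.5 CPM, with a UMI in 76.6% of its cells. The study describes this receptor gene as barely expressed in its TLF+ macrophages. The levels of the Cd163-led cluster are therefore not those of resident-like macrophages alone. Because the clusters of the days scarcely overlapped, most day differences here are also differences between clusters. Besides, only the Ifi213-led cluster had 50 cells or more on both days, with 59 on day 1.

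Ccl2 was highest in the Ppbp-led cluster, at 6086 CPM (6038 to 6135). It was at 4453 CPM in the Serpinb2-led, 3784 CPM in the Cd163-led and 1818 CPM in the Ifitm6-led cluster of day 1, and at 918 and 752 CPM in the Ifi213-led and Gpnmb-led clusters of day 3. Every day 1 cluster of monocyte/macrophage-like cells thus lay above both day 3 clusters. Ccl7 was again highest in the Ppbp-led cluster, at 4425 CPM, but the Cd163-led cluster (3162 CPM) came before the Serpinb2-led one (2252 CPM). In the Ifitm6-led cluster, Ccl7 was at only 675 CPM, below the 903 and 848 CPM of the day 3 clusters led by Ifi213 and Gpnmb. This cluster was poor in Ccl7 relative to Ccl2, with 2.69 Ccl2 UMIs to each Ccl7 UMI, against 1.2 in the Cd163-led cluster and 0.886 in the Gpnmb-led cluster.

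Ccl12 was highest in 3 day 1 clusters whose levels lay close together. They were the Ifi213-led cluster with 550.2 CPM (495 to 610) from 59 cells, the Ppbp-led with 520 CPM (506 to 534) and the Cd163-led with 494 CPM (480 to 509). The interval of the Ifi213-led cluster overlapped both of the others, and 1 of its cells held 27.9% of its Ccl12 UMIs. The Ifi213-led cluster of day 3 (183 CPM), the Serpinb2-led (167 CPM), the Gpnmb-led (129 CPM) and the Ifitm6-led cluster (87.5 CPM) followed. Ccl8 gave the sharpest separation. It was at 289 CPM (278 to 301) in the Cd163-led cluster and 114 CPM in the Ppbp-led cluster, but at 2.21 CPM in the Serpinb2-led and 0.55 CPM in the Ifitm6-led cluster of the same library. Of the 36 Ccl8 UMIs in the 1410 Serpinb2-led cells, 1 cell held 52.8%. On day 3 the Gpnmb-led cluster had 174 CPM and the Ifi213-led 120.1 CPM. The Ifi213-led cells of day 1 had 192 CPM (161 to 229), the second highest of that library. Within this cluster Ccl8 was lower on day 3, with a log2 ratio of -0.69 (-0.94 to -0.41), against 0.81 over the whole class. The other 3 members were lower there too, with log2 ratios of -1.41 for Ccl2, -0.91 for Ccl7 and -1.59 for Ccl12. The Cd163-led cluster had only 49 cells on day 3, under the limit of 50. Its Ccl8 went the other way, from 289 CPM on day 1 to 433 CPM on day 3, while its other 3 members were lower on day 3. The Cd163-led cluster alone held 57.8% of the Ccl8 UMIs of day 1 with 10.5% of the cells, and the Gpnmb-led cluster held 59.3% of those of day 3 with 29.1% of the cells.

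**Figure D3:**
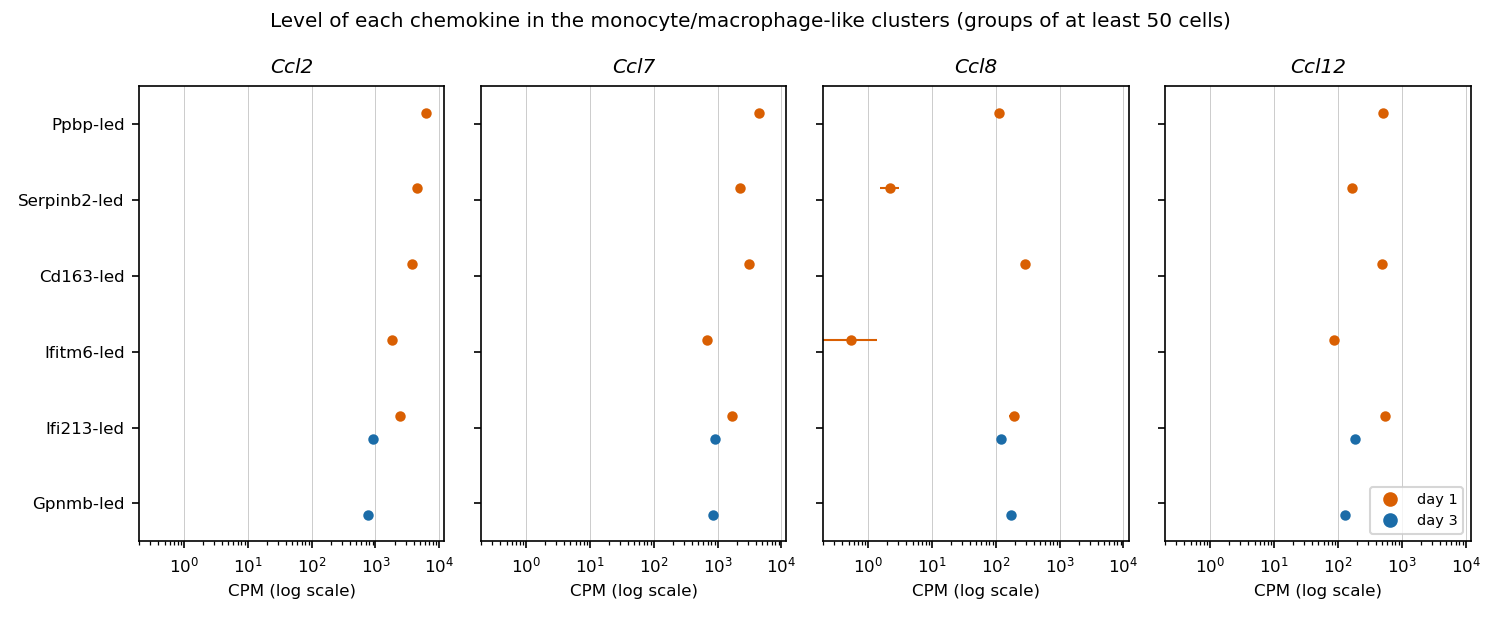
Level of each chemokine in CPM (log axis) in the 6 monocyte/macrophage-like clusters, named by their leading gene, for day 1 (orange) and day 3 (blue), in groups of at least 50 cells with 95% Poisson intervals. Ccl8 runs from 0.55 CPM in the Ifitm6-led to 289 CPM in the Cd163-led cluster of day 1, whereas Ccl2 runs from 1818 to 6086 CPM over the clusters of that day.

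The mix of the 4 chemokines differed with the day and with the cluster. In monocyte/macrophage-like cells of day 1, 57.9% of the UMIs of the 4 genes belonged to Ccl2, 36.7% to Ccl7, 4.23% to Ccl12 and 1.24% to Ccl8. On day 3 the shares were 41.1%, 43.6%, 7.48% and 7.87%. The summed level of the 4 was 7269 CPM on day 1 and 1995 CPM on day 3. Ccl2 UMIs per Ccl7 UMI went from 1.58 to 0.944 in monocyte/macrophage-like cells and from 1.84 to 1.04 in fibroblast/FAP-like cells, so the shift toward Ccl7 was seen in both. It was also seen in neutrophil-like cells, from 2.10 to 1.13. The shift was the opposite in the Plac8-led cluster, from 2.02 to 3.57, and in dendritic cell-like cells, from 1.29 to 2.44. Ccl12 UMIs per Ccl8 UMI went from 3.43 to 0.951 in monocyte/macrophage-like cells. Among these clusters, the part of Ccl12 in the mix was largest in the Ifi213-led cluster, with 11.3% on day 1 and 8.63% on day 3, and that of Ccl8 in the Gpnmb-led cluster of day 3, with 9.16%.

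The cells were also ranked within each library by the share of their UMIs that came from a fixed list of other genes, and split into 4 equal groups. Of the 7 lists ranked, 3 are described first. Along the 9 interferon-responsive genes, Ccl12 was higher in the highest than in the lowest group on both days, going from 211 to 449 CPM on day 1 and from 79.6 to 348 CPM on day 3. Ccl2 differed less along the same ranking, going from 3702 to 4531 CPM and from 780.1 to 1039.8 CPM. Along the 7 TLF+ resident-like genes, Ccl8 went from 3.03 to 259.6 CPM on day 1 and from 13.8 to 334 CPM on day 3, and Ccl12 from 175 to 439.7 CPM and from 93.4 to 237 CPM. Ccl7 went from 445 to 1346 CPM along that ranking on day 3, while on day 1 its lowest and highest groups were at 2402 and 2671 CPM. Along the 8 pro-inflammatory genes, Ccl8 ran downward, from 268 to 1.49 CPM on day 1 and from 241 to 47.0 CPM on day 3, and Ccl2 upward, from 2958 to 5670 CPM and from 725 to 908 CPM. Along 2 other lists Ccl2 ran opposite ways on the days. Along the Gpnmb+Spp1+ genes it went from 2929 to 5274 CPM on day 1 but from 917 to 687 CPM on day 3, and Ccl12 from 163 to 409 CPM but from 202 to 106 CPM. Along the classical monocyte genes Ccl2 went from 4671 to 2758 CPM on day 1 but from 683 to 1010 CPM on day 3, and Ccl12 from 307 to 236 CPM but from 93.3 to 261 CPM. Along the MHCII genes Ccl8 turned over as well, from 97.8 to 156 CPM and from 164 to 66.3 CPM, whereas Ccl2 was lower in the highest group on both days. The proliferating genes had no UMI in 3 of the 4 groups of day 1 and so ranked few of its cells. In each library, the cells rich in Il1b, Arg1 and other pro-inflammatory genes held more Ccl2 and less Ccl8. These groups also differed in depth, with medians on day 3 of 11544 and 16557 UMIs in the lowest and highest TLF+ group.

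**Figure D4:**
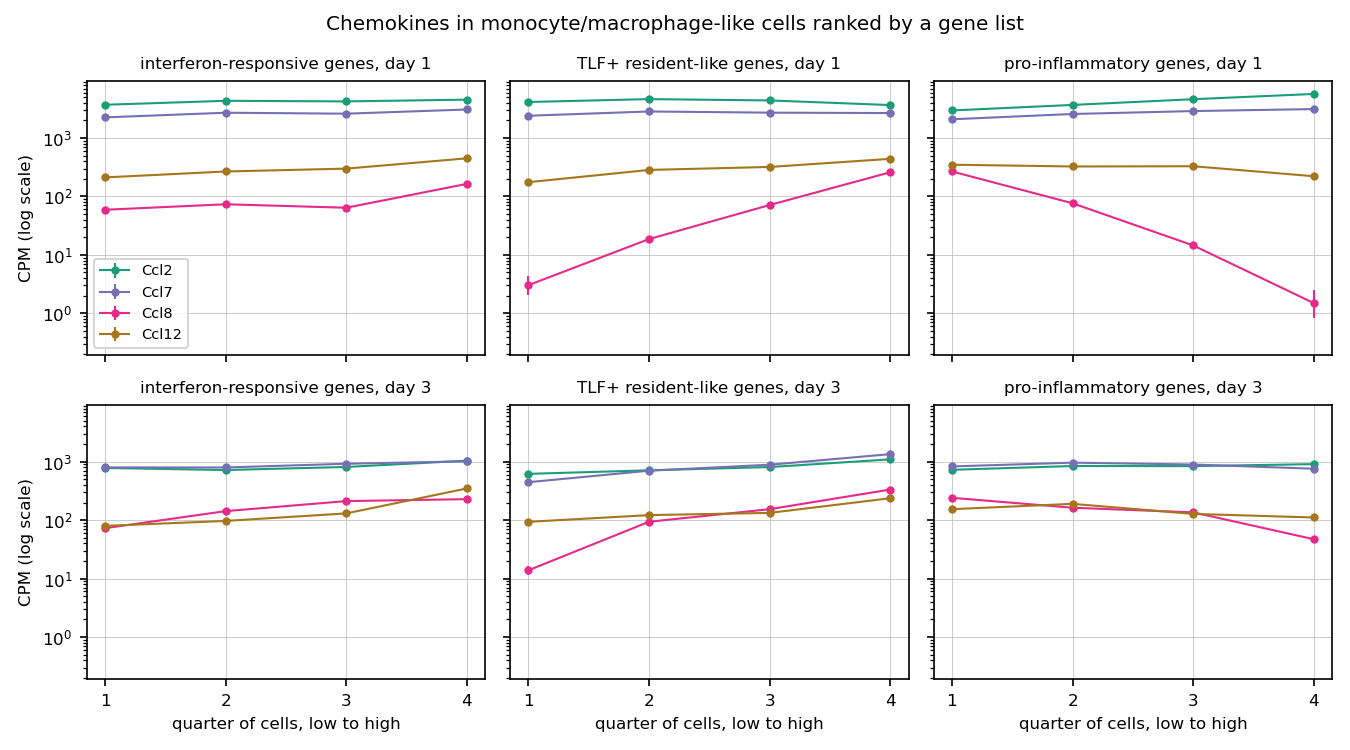
Level in CPM (log axis) of the 4 chemokines in 4 equal groups of the monocyte/macrophage-like cells ranked by the share of UMIs from a gene list, lowest group at the left, with 95% Poisson intervals, for day 1 (upper row) and day 3 (lower row). Ccl8 (pink) climbs along the TLF+ genes from 3.03 to 259.6 CPM on day 1 and descends along the pro-inflammatory genes from 268 to 1.49 CPM.

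Single cells most often held Ccl2 and Ccl7 together. After thinning, 77.1% of day 1 monocyte/macrophage-like cells with Ccl2 also had Ccl7, against 16.9% of those without Ccl2, and on day 3 the shares were 62.7% and 26.5%. Spearman's rho of the thinned counts of Ccl2 and Ccl7 was 0.73 over 3554 cells of day 1 and 0.49 over 2699 cells of day 3, given as descriptions of cells that share a library. Of day 1 cells with Ccl12, 96.9% had Ccl2 and 91.5% had Ccl7, against 82.0% and 61.1% of those without Ccl12. On day 3 the shares were 82.4% and 74.0% against 58.0% and 43.6%. Most day 1 cells thus held the abundant pair whether or not they held Ccl12, and the shares were higher in those with it. Ccl8 and Ccl12 met less often. Of the day 1 cells with Ccl8, 62.3% also had Ccl12 against 23.2% of those without, while only 7.61% of the cells with Ccl12 had Ccl8. The thinned counts of Ccl2 and Ccl8 had a rho of -0.02 on day 1 and 0.06 on day 3. A UMI of all 4 members was found in 1.6% of the day 1 cells and 2.26% of the day 3 cells, and of none in 11.5% and 24.4%.

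Fibroblast/FAP-like cells held Ccl2 and Ccl7 at levels close to those of the monocyte/macrophage-like cells. Ccl2 stood at 3592 CPM (3565 to 3620) on day 1 and 1233 CPM (1219 to 1247) on day 3, a log2 ratio of -1.54 (-1.56 to -1.52). Ccl7 stood at 1951 and 1187 CPM, a log2 ratio of -0.72 (-0.74 to -0.69). On day 3 both genes were thus higher here than in monocyte/macrophage-like cells, at 820.1 and 869 CPM, while on day 1 both were lower. In this type 1 of the 4 members, Ccl2, was at least 2-fold lower on day 3, which 8.07% of 7686 genes were, and none was at least 2-fold higher, as 16.1% were. The median log2 ratio of all these genes was 0.15. Thinned to 3000 UMIs, 76.8% of the cells on day 1 and 73.4% on day 3 had Ccl2, and 79.9% and 75.7% had Ccl7. The share of FAP-like cells with Ccl2 therefore scarcely differed between the days while the level did, and cells with a Ccl2 UMI held 117 of them on average on day 1 and 40.2 on day 3. The richest single cell of both libraries for Ccl2, with 1064 UMIs, was a FAP-like cell of day 1. The FAP-like cells of day 1 lay almost wholly in a cluster led by Cxcl5 and Prg4 (631 cells) and those of day 3 in one led by Sfrp2 and Col3a1 (842 cells).

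Ccl8 and Ccl12 were low in fibroblast/FAP-like cells. Ccl12 went with macrophage markers on both days, and Ccl8 on day 3 only. Ccl8 stood at 27.3 CPM on day 1 and 41.3 CPM on day 3, and Ccl12 at 18.7 and 33.2 CPM. The 10 monocyte/macrophage markers summed to 371 CPM in these cells on day 1 and 1231 CPM on day 3, and their part in the day differences was not tested over all FAP-like cells. FAP-like cells with a Ccl12 UMI held 1632 CPM of these markers on day 1 and 3251 CPM on day 3, against 184 and 754 CPM in those without. For Ccl8 the values were 340 and 1584 CPM in cells with a UMI, against 382 and 1040 CPM in those without. In FAP-like cells with no UMI of the 10 markers (326 on day 1 and 145 on day 3), Ccl12 was at 1.10 CPM from 9 UMIs on day 1 and had 0 UMIs on day 3, which allows up to 1.48 CPM. Ccl8 stayed measurable in the same cells, at 36.2 CPM (32.1 to 40.5) on day 1 and 23.7 CPM (18.1 to 30.6) on day 3, in 18.1% and 20% of them. Ccl2 was at 3639 and 1397 CPM and Ccl7 at 1789 and 1462 CPM there. FAP-like cells free of macrophage markers thus held Ccl2, Ccl7 and Ccl8, whereas Ccl12 was at or near 0 in them. The log2 ratio of Ccl8 in FAP-like cells was 0.60 (0.45 to 0.76) over all of them and -0.60 (-1.04 to -0.20) in those without macrophage markers, so its direction depended on that choice. That of Ccl12 was 0.83 (0.65 to 1.01) over all FAP-like cells, and the other ways of processing the cells put it between -0.0018 with thinned cells and 2.81 with free RNA subtracted.

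The other cell types held few of the UMIs. In dendritic cell-like cells Ccl2 was at 98.7 CPM on day 1 and 53.5 CPM on day 3, Ccl7 at 76.3 and 22.0 CPM and Ccl12 at 9.87 and 1.2 CPM. Ccl8 had 0 UMIs in those of day 1, which allows up to 2.43 CPM, and 2 UMIs on day 3. In satellite cell/myoblast-like cells of day 3 Ccl2 was at 25.2 CPM, Ccl7 at 26.3 CPM, Ccl8 at 2.42 CPM and Ccl12 at 1.65 CPM. Each was below the level that free RNA, at the share estimated from collagen genes and Dcn, would give (35.0, 38.2, 5.31 and 3.69 CPM), and was read as background. Endothelial-like cells of day 1 had 1954 CPM of Ccl2, 1446 CPM of Ccl7, 61.9 CPM of Ccl12 and no UMI of Ccl8, which allows up to 4.31 CPM. Only 82 cells gave these values, and 1 cell held 25.1% of the UMIs of both Ccl2 and Ccl7. Free RNA, estimated in the same way at 11.2% of their UMIs, would give 19.0% of their Ccl2, 17.3% of their Ccl7 and 41.5% of their Ccl12. The Plac8-led cluster held 2211 CPM of Ccl2 on day 1 and 360 CPM on day 3, 1093 and 101 CPM of Ccl7, 70.2 and 2.90 CPM of Ccl12, and 12.3 and 1.66 CPM of Ccl8. The Plac8-led cells of day 3 thus held Ccl2 with far less of the other 3.

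Neutrophil-like cells had a higher level of every member on day 3 than on day 1. They held 121 CPM of Ccl2 on day 1 and 439 CPM on day 3, 57.5 and 387 CPM of Ccl7, 1.54 and 53.5 CPM of Ccl8, and 7.71 and 37.0 CPM of Ccl12. The 255 cells of day 3 had a median of 1621 UMIs, and the 39 of them with a Ccl2 UMI held 5167 CPM of monocyte/macrophage markers and 7012 CPM of neutrophil markers, against 454 and 45941 CPM in the 216 without. The day 3 neutrophil-like cells with no macrophage marker UMI (149 cells) had 201 CPM of Ccl2, 54.0 CPM of Ccl7, 3.86 CPM of Ccl8 from 1 UMI and 0 UMIs of Ccl12. The free RNA estimated from collagen genes and Dcn was 35.1% of the UMIs of the day 3 neutrophil-like cells and 2.01% on day 1, which would give 43.8% to 54.7% of the level of each member on day 3 and 55.2% to 97.1% on day 1. In the Acod1-led cluster of neutrophil-like cells (1031 and 93 cells), Ccl12 was at 11.8 CPM on day 1 and had 0 UMIs on day 3, which allows up to 17.8 CPM. Most of the chemokine UMIs in this class lay in cells that also carried macrophage markers.

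RNA outside cells held the same genes. In barcodes of at most 100 UMIs, read as free RNA, Ccl2 was at 3310.5 CPM on day 1 and 547 CPM on day 3, Ccl7 at 2234 and 598 CPM, Ccl8 at 74.5 and 83.2 CPM, and Ccl12 at 230 and 57.7 CPM. The free RNA estimated in monocyte/macrophage-like cells was 1.85% and 1.45% of their UMIs, which would give at most 1.55% of the level of any member. In fibroblast/FAP-like cells, where the estimate rests on C1q and S100a8/S100a9 transcripts and so also counts cells caught together, it was 6.84% and 21.1%. That share would give 6.30% and 9.36% of their Ccl2, and 83.9% and 36.6% of their Ccl12.

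Among the receptors of these ligands, Ccr2 was at 372 CPM in monocyte/macrophage-like cells on day 1 and 241 CPM on day 3, and at 393 and 685 CPM in the Plac8-led cluster. Within the day 3 monocyte/macrophage-like cells the Ifi213-led cluster had 482.5 CPM of Ccr2 and the Gpnmb-led cluster 93.3 CPM, while the levels of Ccl2 in them were 918 and 752 CPM. Ccr1 was at least 2-fold lower on day 3 in monocyte/macrophage-like cells, at 382 and 93.6 CPM. Ccr8, the receptor of mouse CCL8, had 0 UMIs in monocyte/macrophage-like cells on both days. None of the 3 atypical receptors, which bind chemokines without signalling in the usual way, reached 500 UMIs in that class.

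Other CC chemokines were counted beside the members. Of 16, 6 had at least 500 UMIs in monocyte/macrophage-like cells, 4 of them (Ccl5, Ccl6, Ccl9 and Ccl24) were at least 2-fold lower on day 3 and 0 higher, with a median log2 ratio of -2.68 against 0.35 for all genes. Over all genes of that class, 5.31% were at least 2-fold lower and 20.4% higher. Ccl6 went from 6093 to 651 CPM and Ccl24, which draws eosinophils, from 456 to 7.13 CPM, so the lower level on day 3 was shared by chemokines with other targets. Ccl3 (1037 and 593 CPM) and Ccl4 (1474 and 1022 CPM) differed less. In fibroblast/FAP-like cells 2 of the 6 counted were lower and 0 higher, beside 8.07% lower and 16.1% higher over all genes there. Ccl11, which lies between Ccl7 and Ccl12 on the chromosome, was at 74.2 and 61.6 CPM in FAP-like cells and at 0.12 and 0.18 CPM in monocyte/macrophage-like cells. The gene between the members thus had the opposite pattern to Ccl12, its neighbour.

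Of 10 NF-kB inducers and feedback genes, 9 were at least 2-fold lower on day 3 in monocyte/macrophage-like cells and 0 higher, with a median log2 ratio of -1.76. Il1b went from 8058 to 266 CPM, Tnf from 403 to 87.6 CPM and Nfkbia, the inhibitor that NF-kB itself induces, from 4810 to 868 CPM. Of 12 type I interferon response genes, 11 were at least 2-fold higher and 0 lower, with a median of 2.15. Of all genes counted in this class, 5.31% were at least 2-fold lower and 20.4% at least 2-fold higher. Ccl2, Ccl7 and, at the 2-fold line, Ccl12 were lower on day 3 as well, and no member was at least 2-fold higher. Whether the members share a regulator with either list was not tested. In fibroblast/FAP-like cells 3 of the 10 NF-kB genes were lower and 0 higher, and all 8 interferon genes with enough UMIs were higher. Of all genes counted there, 8.07% were lower and 16.1% higher.

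Across the 19 groups of at least 50 cells made by cluster and day, the gene most like Ccl2 among 10387 was Ccl7, with a Pearson r of 0.97 between log2(CPM + 10) values, and the reverse held as well. Next for Ccl2 came Ecm1 (0.95) and Slc39a1 (0.88), and for Ccl7 Ecm1 (0.92) and Sash1 (0.90). The genes most like Ccl8 were Folr2 (0.91), Slco2b1 (0.91) and Cbr2 (0.89), of which Folr2 and Cbr2 are on the TLF+ list. Those most like Ccl12 were Snx24 (0.93), Sel1l3 (0.91) and Snx3 (0.91). The r between Ccl12 and Ccl7 was 0.82 and that between Ccl8 and Ccl2 0.48. The groups share libraries, depth and cell lineage, so these values only describe the likeness.

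The 250 bases before the start of Ccl12 and Ccl8 are shown, since these neighbours were both high in the Cd163-led cluster of day 1 yet parted in the Serpinb2-led cluster of the same library, at 167 and 2.21 CPM. RefSeq (GRCm38.p6, plus strand) gave the sequences of 2 of the 4 members, Ccl12 at chr11:82101595-82101844 and Ccl8 at chr11:82114935-82115184. Capitals mark TATAAAA, the core of a TATA box, and GGAAATC, a run that the sequences were seen to share.
Ccl12: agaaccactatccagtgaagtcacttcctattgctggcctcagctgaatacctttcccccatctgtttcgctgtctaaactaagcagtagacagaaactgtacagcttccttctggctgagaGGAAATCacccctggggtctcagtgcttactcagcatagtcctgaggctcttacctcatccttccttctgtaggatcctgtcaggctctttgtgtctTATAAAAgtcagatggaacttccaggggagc
Ccl8: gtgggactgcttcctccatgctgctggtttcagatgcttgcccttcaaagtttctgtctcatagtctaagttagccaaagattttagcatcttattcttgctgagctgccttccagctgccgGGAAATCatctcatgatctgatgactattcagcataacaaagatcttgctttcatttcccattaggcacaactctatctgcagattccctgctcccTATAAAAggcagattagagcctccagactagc
TATAAAA begins 31 bases before the start of Ccl12 and 32 bases before that of Ccl8, and it is in 4.98% of the 32851 listed promoters on either strand of the same 250 bases. GGAAATC begins 128 bases before the start of both and is in 3.36% of all. The 2 windows were 57.5% identical. On either strand, neither holds a core of the interferon-stimulated response element, found in 2.98% of all promoters, an NF-kB core, found in 45.8%, or TGANTCA, an AP-1 core found in 6.75%. These letters describe the windows only.

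**Figure D5:**
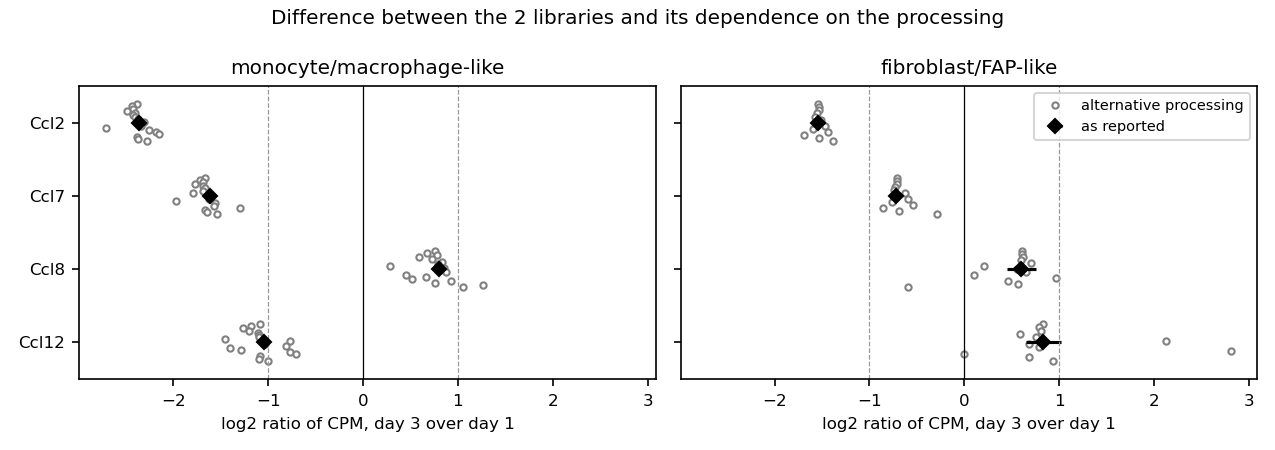
log2 ratio of CPM of day 3 over day 1 for each chemokine in monocyte/macrophage-like (left) and fibroblast/FAP-like cells (right); black diamonds are the values reported with 95% intervals of counting error, open circles are other ways of processing, and dashed lines mark 2-fold. In monocyte/macrophage-like cells Ccl2 stays between -2.71 and -2.15, whereas in fibroblast/FAP-like cells Ccl12 is spread from about 0 to 2.81 and Ccl8 from -0.60 to 0.97. FAP-like cells without macrophage markers gave no ratio for Ccl12, which had 0 UMIs in those of day 3.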

How the data were processed

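The deposited files hold unnormalized UMI counts of 3-prime 10x libraries for every possible barcode, made by the authors, and the submitters' processing notes name Cell Ranger 5.0.0 and mm10, while the matrix headers name another major version of Cell Ranger; which version made the counts was not settled here. The 7367 (day 1) and 6640 (day 3) barcodes with the most UMIs were taken, and those with under 1000 UMIs, under 200 genes or over 7.5% mitochondrial UMIs were dropped. No doublet was removed, since Scrublet (scanpy 1.11.5) called 2 and 0; an alternative removed the 363 and 171 highest-scoring cells. Libraries were merged and clustered with Seurat 5.3.0 (sctransform 0.4.2, R 4.3.3) on 3000 variable features without the members, markers and pathway genes, with 10 PCs and a resolution of 0.8. A cluster took the name of its best marker list if at least 3 markers were raised at least 2-fold and no other list had more genes among the 10 leading it against other types or the 10 leading it against all other cells, where classical monocyte genes counted as monocyte/macrophage; rebuilt names may differ from the study's. For a log2 ratio, 0.5 was added to both UMI sums, and its interval is exact binomial. They were checked on simulated day 1 and day 3 counts over all cells, drawn with counting error only: intervals held the true value for 98% of the 50 genes lowered 2-fold. The simulation had no differences between cells, so it cannot show how the intervals fare where few cells hold most UMIs. Named are the members in every type of at least 50 cells, the listed pathway genes, and the 3 genes most like each member. The members and lists were chosen with earlier results of these data known.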

Additional observations from a re-analysis of the deposited data

Results flagged for a closer look

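Ccl12 went opposite ways in the main sources of these chemokines: its log2 ratio of day 3 over day 1 was -1.04 in the monocyte/macrophage-like class but 0.83 in that of fibroblast/FAP-like cells. The difference was not tested, with 1 library per day. The FAP-like direction did not hold throughout: the ratio was -0.0018 with thinned cells, free RNA would give 83.9% of the day 1 level, and in FAP-like cells free of macrophage markers Ccl12 was at 1.10 CPM on day 1 and had 0 UMIs on day 3. FAP-like cells with a Ccl12 UMI had a higher level of macrophage markers than those without.

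Neutrophil-like cells went against monocyte/macrophage-like cells, with log2 ratios of 1.86 for Ccl2, 2.75 for Ccl7 and 2.27 for Ccl12 against -2.36, -1.62 and -1.04. These differences were not tested either, and the 39 day 3 neutrophil-like cells with Ccl2 held more macrophage markers than those without. Free RNA would give 43.8%, 54.3% and 54.7% of the day 3 levels of Ccl2, Ccl7 and Ccl12 in these cells, and in their Acod1-led cluster Ccl12 had 0 UMIs on day 3 against 11.8 CPM on day 1.

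The barcodes left out for a high mitochondrial share held the members as well. On day 1 they had 1027 CPM of Ccl2, 783 CPM of Ccl7, 10.8 CPM of Ccl8 and 49.0 CPM of Ccl12. On day 3 they had 376 CPM of Ccl2, 376 CPM of Ccl7, 61.2 CPM of Ccl8 and 49.1 CPM of Ccl12. All of these were below the levels in the cells that were kept.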

How the results depend on the processing

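In monocyte/macrophage-like cells all 4 log2 ratios of day 3 over day 1 kept their direction in 18 alternatives, ranging from -2.71 to -2.15 for Ccl2, -1.97 to -1.29 for Ccl7, 0.29 to 1.26 for Ccl8 and -1.45 to -0.71 for Ccl12, which stayed at least 2-fold lower in 13. In fibroblast/FAP-like cells, Ccl2 and Ccl7 kept theirs in 13. Ccl8 turned over in 1 of 13 and Ccl12 in 1 of 12. FAP-like cells without macrophage marker UMIs gave no ratio for Ccl12, which had 9 UMIs there on day 1 and 0 on day 3. Values that moved by more than the counting interval follow, and the cause was not tested. Monocyte/macrophage-like cells come first. With 20 PCs, the ratio was -2.44 for Ccl2, -1.72 for Ccl7, 0.67 for Ccl8 and -1.18 for Ccl12. With the highest doublet scores removed, the ratio was -2.41 for Ccl2, -1.68 for Ccl7 and -1.09 for Ccl12. With cells thinned to 3000 UMIs, the ratio was -2.33 for Ccl2, 0.87 for Ccl8 and -0.81 for Ccl12. With each library clustered alone, the ratio was -2.49 for Ccl2, -1.77 for Ccl7, 0.59 for Ccl8 and -1.20 for Ccl12. With cells named by their highest marker score, the ratio was -1.79 for Ccl7, 0.29 for Ccl8 and -1.45 for Ccl12. With log normalization, the ratio was -2.43 for Ccl2, -1.68 for Ccl7 and -1.27 for Ccl12. With the mean of the cells' CPM, the ratio was -2.31 for Ccl2 and -0.77 for Ccl12. With a mitochondrial limit of 15%, the ratio was -2.40 for Ccl2, -1.68 for Ccl7, 0.73 for Ccl8 and -1.10 for Ccl12. In cells selected on Adgre1 and Fcgr1, the ratio was -2.26 for Ccl2, -1.56 for Ccl7, 0.67 for Ccl8 and -1.28 for Ccl12. With another call of cells, the ratio was -2.43 for Ccl2, -1.67 for Ccl7 and -1.10 for Ccl12. At a resolution of 0.4, the ratio was -2.38 for Ccl2, -1.66 for Ccl7 and -1.09 for Ccl12. Relative to the median of all genes, the ratio was -2.71 for Ccl2, -1.97 for Ccl7, 0.45 for Ccl8 and -1.40 for Ccl12. The next alternatives were chosen after seeing the data. In cells without fibroblast/FAP marker UMIs, the ratio was -2.28 for Ccl2, -1.53 for Ccl7, 1.05 for Ccl8 and -1.0 for Ccl12. With the Plac8-led cluster added, the ratio was -2.38 for Ccl2, -1.66 for Ccl7 and -1.09 for Ccl12. Without the 10 richest cells per library, the ratio was -1.64 for Ccl7, 1.26 for Ccl8 and -1.10 for Ccl12. Without the Gpnmb-led cluster, the ratio was -2.18 for Ccl2, -1.57 for Ccl7, 0.52 for Ccl8 and -0.77 for Ccl12. Without the Ppbp-led cluster, the ratio was -2.15 for Ccl2, -1.29 for Ccl7, 0.93 for Ccl8 and -0.71 for Ccl12. Fibroblast/FAP-like cells gave the following values. With free RNA subtracted, the ratio was -1.59 for Ccl2, -0.76 for Ccl7, 0.10 for Ccl8 and 2.81 for Ccl12. With the highest doublet scores removed, the ratio was -1.52 for Ccl2, -0.63 for Ccl7, 0.20 for Ccl8 and 2.12 for Ccl12. With cells thinned to 3000 UMIs, the ratio was -1.43 for Ccl2, -0.54 for Ccl7, 0.97 for Ccl8 and -0.0018 for Ccl12. With each library clustered alone, the ratio was 0.58 for Ccl12. With cells named by their highest marker score, the ratio was -0.74 for Ccl7. With the mean of the cells' CPM, the ratio was -1.47 for Ccl2 and -0.59 for Ccl7. With a mitochondrial limit of 15%, the ratio was -1.58 for Ccl2 and -0.75 for Ccl7. Relative to the median of all genes, the ratio was -1.69 for Ccl2 and -0.86 for Ccl7. The last alternatives for these cells were also chosen after seeing the data. In cells without monocyte/macrophage marker UMIs, the ratio was -1.38 for Ccl2, -0.29 for Ccl7 and -0.60 for Ccl8. Without the 10 richest cells per library, the ratio was -0.69 for Ccl7. The other call of cells left 3 FAP-like cells on day 1 and gave no value. No paired analysis was possible because each day is 1 library with no replicates. With 1 library a day, the spread between pools of mice is unknown.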
